A study of Mus musculus with 12 samples.

Results

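The comparison described here set the kidneys of 4 sick mice against those of 4 healthy mice of the same genotype. The 8 libraries were taken by the submitters' class of sick or healthy from the 12 libraries of the series, the other 4 being wild-type. Both groups were male, up to 3 months old and homozygous for a knock-in of the M743T substitution in Gne, so the substitution was shared by the sick animals and their controls and did not separate them. The labels do not say how sickness was judged, and they name no litter, strain, day or batch. Each library was taken as 1 mouse, and the p-values below measure the spread between these libraries. Total RNA of whole kidney was sequenced, so each value is a mix of all cell types of the organ and of any tissue taken with it. The wild-type mice are the reference level, given for some of the genes named. They were not a side of the comparison, but their libraries shared its fit and its estimate of spread.

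Gne encodes the enzyme that opens the synthesis of sialic acid, the charged sugar that caps many glycoproteins of the cell surface. In the kidney, sialic acid on podocyte proteins helps to keep the glomerular filter open, and loss of it in mice leads to glomerular disease with protein in the urine. The proximal tubule recovers most of the filtered salt, sugar, phosphate and protein and lives on mitochondrial oxidation. Injured tubule cells are known to lose their carriers, to secrete injury proteins, and to lie beside expanding fibroblasts and macrophages.

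Levels are in CPM, read counts put on a common library size after correction by TMM, a scaling that assumes most genes to be level between libraries. They compare mice for 1 gene and not genes with each other, since they are not divided by gene length. A log2 fold change is sick minus healthy, given with its SE, and a gene was called when edgeR's quasi-likelihood test, adjusted over 15589 genes, gave it a p under 0.05. The median beside a gene list is that of its tested members' log2 fold changes. Total counts were 18191087 to 21925419 in healthy and 10605546 to 22633684 in sick mice, with sick mouse 3 the shallowest. The TMM factors did not overlap, at 0.804 to 0.933 in healthy and 1.23 to 1.39 in sick libraries. Counts of mitochondrially encoded genes made up 14.3% to 15.7% of healthy and 5.29% to 9.06% of sick libraries. Wild-type mouse 2 stood apart, with 4 abundant genes (Kap, mt-Atp6, mt-Atp8 and mt-Co3) listed at 0 in that library alone, and without it 4395 genes rose and 4118 fell in the comparison given below. Under scaling by total counts, the median log2 fold change of all genes was 0.63 instead of 0.05.

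All 8 libraries held the defining genes of kidney, among them Umod at 1115 to 3861 CPM in healthy and 265 to 2639 CPM in sick mice and Slc34a1 at 4339 to 7203 and 435 to 1116 CPM. Transcripts of neighbouring tissues were present as well and differed between the groups. The 4 healthy libraries held skeletal muscle transcripts that were near 0 in the sick and, but for Pvalb, in the wild-type libraries. Ckm, the creatine kinase of muscle, was at 27.2, 25.1, 26.0 and 38.8 CPM in the healthy mice, at 0, 1.59, 0.230 and 2.004 CPM in the sick mice and at most 0.118 CPM in wild-type mice. Acta1, the actin of skeletal muscle, was at 68.1, 66.1, 67.4 and 102 CPM in healthy and 0.649, 2.46, 0.998 and 3.19 CPM in sick mice. All 12 genes of the skeletal muscle list were lower in sick mice (median -4.84), and 11 of them were higher in healthy knock-in than in wild-type mice. Muscle genes thus separated the healthy knock-in libraries from both other groups. Against wild-type mice the median log2 fold change of the list was 7.59 in healthy and 3.13 in sick knock-in mice. The part of muscle tissue in any other result was not tested.

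Fat and urothelium went the other way and varied among the sick mice. Adipoq, the adiponectin gene of fat cells, was at 2.11, 37.1, 30.4 and 123 CPM in sick mice 1 to 4 and at 0.284 to 1.84 CPM in healthy mice. Without sick mouse 4 its log2 fold change went from 5.41 to 4.35. Krt5, a keratin of basal urothelium, was at 5.51, 4.68, 7.29 and 44.9 CPM in sick and 0, 0.525, 4.92 and 0.0568 CPM in healthy mice, so that healthy mouse 3 reached the level of the lowest sick mice. Its call (adjusted p = 0.0235) was lost without sick mouse 4 (log2 fold change 2.07 in place of 3.49, adjusted p = 0.139) or without any of healthy mice 1, 2 and 4, while without healthy mouse 3 the value was 6.19 (adjusted p = 0.00186). Upk1a, a uroplakin of the bladder and renal pelvis lining, had the same 2 mice on top, at 47.9 CPM in sick mouse 4 and 18.5 CPM in healthy mouse 3, and was not called (log2 fold change 1.83, adjusted p = 0.166). It was called without healthy mouse 3 (4.38, adjusted p = 0.00268) and was 0.80 without sick mouse 4. Of 9 adipose genes 7 rose and 1, Lpl, fell, the latter a gene of kidney vessels as well and not called without healthy mouse 2 or 3 or sick mouse 3 or under scaling by total counts. The number of adipose genes that rose was 4 without sick mouse 4. Of 12 urothelial genes 4 rose and 0 fell, with 12 higher without healthy mouse 3, 2 without sick mouse 4 or any of healthy mice 1, 2 and 4, and 8 under scaling by total counts. The blood list followed the mouse rather than the group, with Hbb-bs, a beta globin, at 38.4, 174, 138 and 41.7 CPM in healthy and 9.12, 128, 130.2 and 62.5 CPM in sick mice. Of its 6 genes 1 was called, Slc4a1, which intercalated cells also use. The part of these tissues in the results that follow was not tested.

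**Figure D1:**
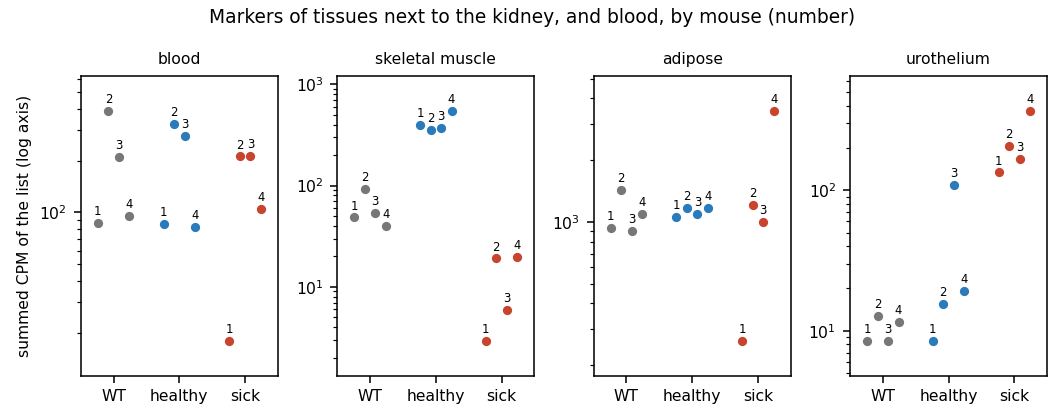
Summed CPM (log axis) of the genes of 4 lists, blood, skeletal muscle, adipose and urothelium, in each wild-type, healthy and sick mouse, with the mouse number at each point. The 4 healthy mice sit above all others for skeletal muscle, at 352 to 549 against 2.92 to 19.7 CPM in sick mice, and sick mouse 4 is highest for adipose and urothelium.

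The kidneys of the sick mice differed from those of their healthy counterparts across a large part of the measured genes. Of 15589 genes 3814 rose (24.5%) and 3418 fell (21.9%), 46.4% in all. The 4 sick and 4 healthy libraries did not overlap for 47.2% of genes. Changes of at least 4-fold were called upward in 809 genes (5.19%) and downward in 520 (3.34%). Against wild-type 50.9% of genes were called in sick mice and 0.314% in healthy knock-in mice, 2 comparisons that share libraries with the one described here. The median log2 fold change of all genes was 0.05, and each gene list below is to be read against that value and the shares of 24.5% and 21.9%. In the plot of calls by list, the lists of macrophages, collagens and tubular injury stand at one end. Proximal tubule, gluconeogenesis and mitochondrial lists stand at the other.

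**Figure D2:**
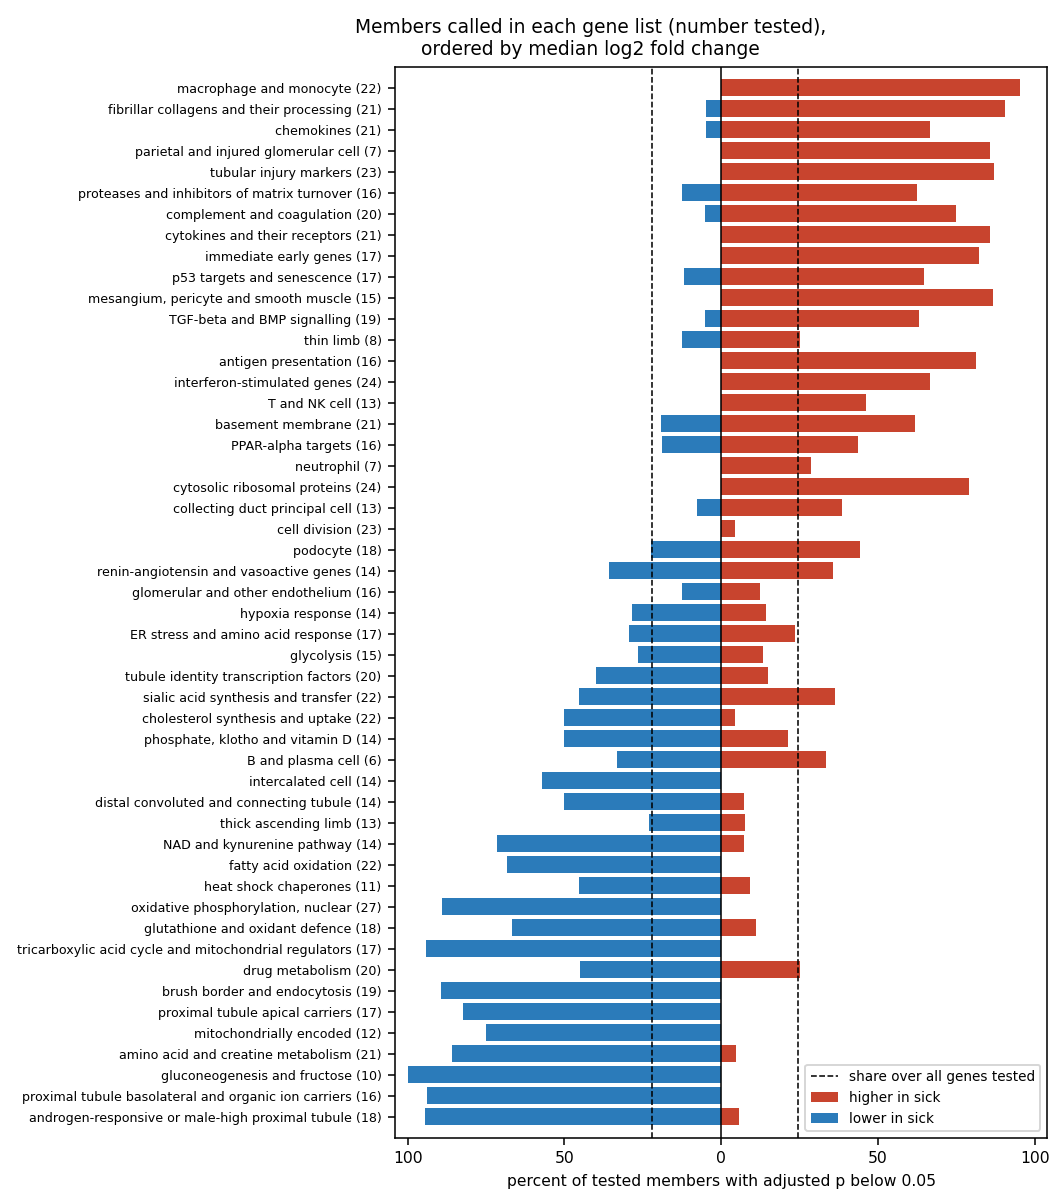
Percent of the tested members of each gene list called higher (right) or lower (left) in sick than in healthy knock-in mice, with the number tested in brackets and lists ordered by their median log2 fold change. Dashed lines mark the share over all genes tested, 24.5% higher and 21.9% lower.

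Gne itself (ENSMUSG00000028479, chromosome 4, 44034075 to 44084177 of GRCm38, reverse strand) was at 39.9, 32.8, 36.2 and 76.9 CPM in healthy mice 1 to 4 and at 25.5, 27.3, 30.2 and 25.5 CPM in sick mice. Wild-type mice had 37.0 to 43.0 CPM. All 4 sick mice lay below all 4 healthy mice, by 1.71-fold (log2 fold change -0.78 ± 0.23, adjusted p = 0.0134). Healthy mouse 4 stood far above the others of its group. Without it the value was -0.43 (adjusted p = 0.0159), and under scaling by total counts it was -0.17 and not called (adjusted p = 0.469). Both groups carry the same substitution, so the level of Gne does not check the genotype.

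Carriers of the proximal tubule fell in the sick kidneys. Of 17 apical carrier genes 14 fell and 0 rose (median log2 fold change -1.57), and of 16 basolateral and organic ion carriers 15 fell and 0 rose, with a median of -2.41. Slc34a1, the main phosphate carrier of the brush border, was at 7203, 5921, 4339 and 6243 CPM in healthy and at 435, 544, 1116 and 796 CPM in sick mice, 8.20-fold lower (log2 fold change -3.04 ± 0.31, adjusted p = 1.27e-05). Its relative Slc34a3 stood at 69.1, 66.6, 44.9 and 53.5 CPM in healthy and 1.54, 1.49, 3.76 and 4.78 CPM in sick mice, 20.8-fold lower (adjusted p = 7.32e-06). For both phosphate carriers sick mice 1 and 2 had the lowest levels, and every sick mouse lay far below every healthy one. Slc5a2, the glucose carrier SGLT2, fell (297 to 419 CPM in healthy and 26.6 to 57.8 CPM in sick mice), as did Slc6a20b, a carrier of proline and related imino acids (217 to 249.7 CPM in healthy and 22.7 to 44.5 CPM in sick mice). In bulk RNA a fall of this kind may come from fewer cells of a type or from less RNA per cell, which cannot be told apart here.

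Slc22a7, the gene of the anion carrier OAT2, had one of the largest falls of all genes. It was at 112, 246, 378 and 136 CPM in healthy mice and at 0.405, 1.03, 0.614 and 2.16 CPM in sick mice, 205-fold lower (log2 fold change -7.68 ± 0.70, adjusted p = 6.69e-06). Its healthy mice varied more than 3-fold among themselves, with mice 2 and 3 above mice 1 and 4, and the sick mice lay more than 50-fold below the lowest of them. Slc17a3, a urate and organic anion carrier, fell (876 to 968 CPM in healthy and 62.3 to 163 CPM in sick mice), as did Slc22a18 (421 to 524 CPM in healthy and 58.6 to 136 CPM in sick mice) and Slc16a4, of the monocarboxylate carrier family (117 to 155 CPM in healthy and 10.9 to 32.6 CPM in sick mice).

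The machinery of the brush border fell with the carriers, 17 of 19 genes, with a median of -1.56 and none higher. Lrp2, the megalin gene of protein reabsorption, was at 3884, 3538, 3259.6 and 3569 CPM in healthy and 358, 497, 426 and 551 CPM in sick mice, 7.78-fold lower (adjusted p = 8.83e-06). Ace, the angiotensin-converting enzyme of the brush border, was at 426, 441, 533 and 487 and 54.6, 69.3, 82.8 and 80.9 CPM, 6.56-fold lower, with one of the 10 smallest p-values of all genes (adjusted p = 1.37e-06). Both groups were narrow for these genes, and sick mouse 1 was the lowest in each. Anpep, an aminopeptidase, fell 4.86-fold and Pdzk1, a scaffold that anchors carriers in the brush border, 4.61-fold.

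**Figure D3:**
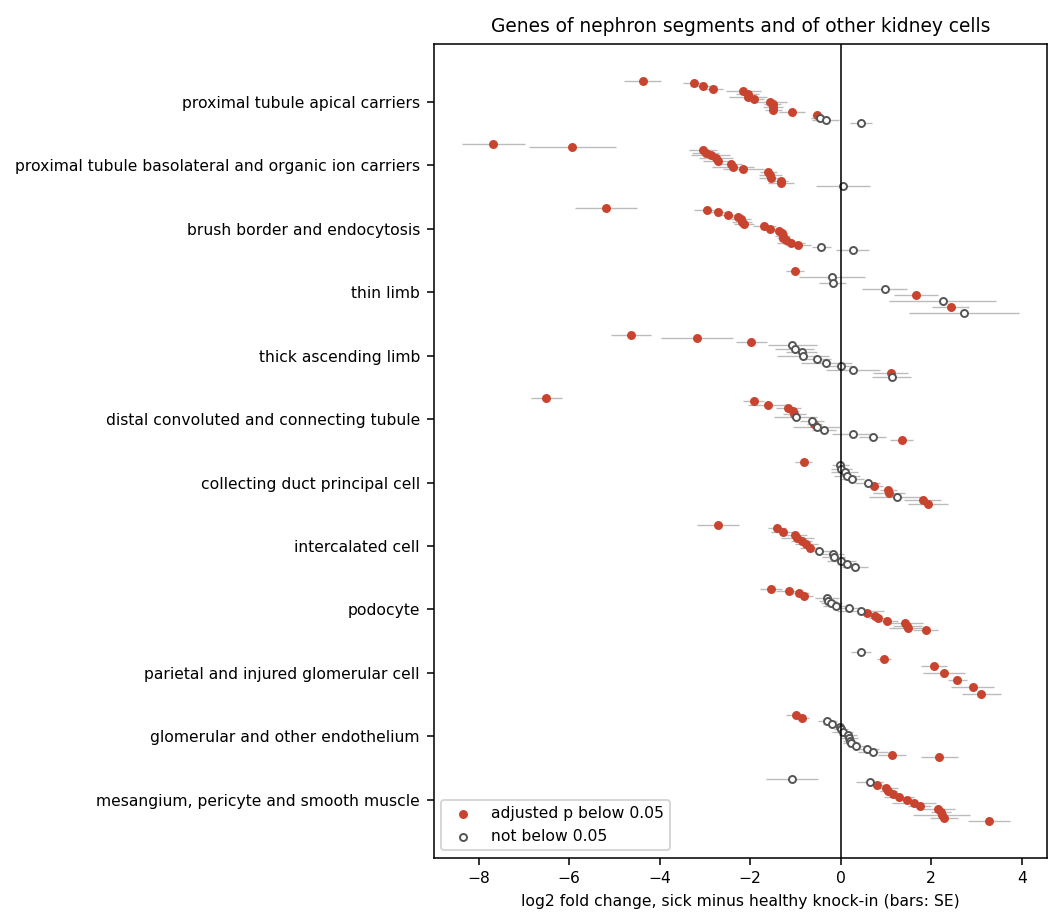
Log2 fold change, sick minus healthy knock-in, with its SE for each tested gene of 12 lists of nephron segments and other kidney cells, filled where the adjusted p is below 0.05. Proximal tubule genes lie to the left of 0 almost throughout, while the lists of the thick limb, distal tubule, principal cell and podocyte spread to both sides.

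Genes that androgen maintains in the male proximal tubule had the lowest median of the kidney lists. Of 18 such genes 17 fell and 1 rose (median -3.503). Kap, the kidney androgen-regulated protein and one of the most abundant transcripts of the male kidney, was at 26796, 20068, 27494 and 29137 CPM in healthy mice and 128, 588, 906 and 1226 CPM in sick mice, 36.3-fold lower. Its call (adjusted p = 0.0215) did not hold without sick mouse 1 (adjusted p = 0.0535) or 2 (adjusted p = 0.0551). Kap is listed at 0 in wild-type mouse 2, a library of the 12 that share the estimate of spread, and with the 8 libraries alone the adjusted p was 2.59e-04. Slc7a13, an aspartate and glutamate carrier of the late proximal tubule, went from 878, 924, 994 and 746 CPM in healthy to 1.95, 8.17, 27.4 and 30.8 CPM in sick mice, 52.3-fold lower (adjusted p = 3.59e-05). The sick mice spread widely here, mouse 1 being more than 10-fold below mice 3 and 4, and all lay below the healthy mice. Odc1, of polyamine synthesis, fell 12.8-fold, Hsd17b11, a steroid dehydrogenase, 9.34-fold and Cndp2, a dipeptidase, 8.01-fold. The member that rose was the diamine oxidase gene Aoc1 (5.45 to 8.96 CPM in healthy and 106 to 122 CPM in sick mice).

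In the thick ascending limb 3 of 13 genes fell and 1 rose (median -0.84), a share of lower genes near the 21.9% over all genes. The count was 6 lower and 0 higher without sick mouse 3 and 8 and 0 with limma-voom, and the median was -0.50 without sick mouse 4. Egf, the growth factor made by thick limb and distal tubule, was at 1117, 1234, 1371 and 1004 CPM in healthy and 23.7, 95.3, 47.2 and 24.8 CPM in sick mice, 24.7-fold lower (log2 fold change -4.63 ± 0.44, adjusted p = 9.18e-06), and sick mouse 2 had the most (-5.21 without it). Cldn10, a claudin of the thick limb, fell 3.93-fold and Tmem207, a membrane protein gene, 9.05-fold. The log2 fold change of Tmem207 went from -3.18 to -2.53 without healthy mouse 3 and to -3.93 without sick mouse 3. For Umod, the uromodulin gene, the groups overlapped, with 1428, 3181, 3861 and 1115 CPM in healthy and 741, 1710.5, 2639 and 265 CPM in sick mice (log2 fold change -0.84, adjusted p = 0.248), and it was called lower with limma-voom (-1.48, adjusted p = 0.0394). Slc12a1, the sodium, potassium and chloride carrier of the segment, stood at 307, 929, 1059 and 223 and 425, 503, 975 and 119 CPM (adjusted p = 0.669). Both genes were low in healthy mice 1 and 4 and in sick mouse 4, and the level of the whole list, in log2 units from the healthy mean, was -0.46, 0.51, 0.61 and -0.66 in healthy and -1.46, -0.45, -0.06 and -2.04 in sick mice 1 to 4. Enox1 was called higher with overlapping groups (adjusted p = 0.0324), a call lost without any of healthy mice 1 and 3 and sick mice 2 and 3 (adjusted p = 0.0825 to 0.110).

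In the distal convoluted and connecting tubule 7 of 14 genes fell and 1 rose (median -0.82). Under scaling by total counts 2 rose and 3 fell (median -0.24). Slc12a3, the thiazide-sensitive carrier, was at 345, 287, 234 and 354 CPM in healthy and 60.2, 113, 63.8 and 83.2 CPM in sick mice, 3.81-fold lower (adjusted p = 4.97e-05). Calb1, a calcium-binding protein of the connecting segment, fell 2.23-fold (log2 fold change -1.16, but -0.57 and not called by total counts) and Cnnm2, of magnesium transport, 2.07-fold. Pvalb, parvalbumin, is a marker of the early distal convoluted tubule and of fast muscle fibres alike. It was at 95.7, 83.1, 76.8 and 113 CPM in healthy, 0.730, 1.29, 0.691 and 1.23 CPM in sick and 47.2, 88.4, 51.7 and 36.7 CPM in wild-type mice (log2 fold change -6.50 ± 0.34, adjusted p = 5.95e-07). The sick mice lay far below the wild-type mice, whose libraries were near 0 for the other genes of the muscle list, while the healthy mice overlapped with wild-type. Sgk1, an aldosterone-induced kinase, rose (54.2 to 121 CPM in healthy and 145 to 291 CPM in sick mice).

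More principal cell genes of the collecting duct rose than fell. Of 13 genes 5 rose and 1, the potassium channel gene Kcnj10, fell (median 0.59). By total counts 10 rose and 0 fell. Aqp2, the water channel that vasopressin moves to the membrane, was at 53.6, 85.9, 203 and 101 CPM in healthy and 266, 419, 699 and 295 CPM in sick mice, 3.79-fold higher (adjusted p = 0.00326). Mouse 3 was the highest in each group, and the lowest sick mouse lay above it in the healthy group. Elf5, a transcription factor of principal cells, rose 3.504-fold, Gata3 2.08-fold and Scnn1b, a subunit of the sodium channel ENaC, 1.66-fold. Of 14 intercalated cell genes 8 fell and 0 rose (median -0.73). Under scaling by total counts 2 rose and 3 fell (median -0.15). Slc4a1, the anion exchanger of acid-secreting cells, was at 13.003 to 48.7 CPM in healthy and 1.64 to 9.29 CPM in sick mice. Slc26a4, the pendrin gene of base-secreting cells, fell 2.44-fold and the ammonia carrier gene Rhbg 2.01-fold, the latter not called by total counts (-0.44, adjusted p = 0.150). In the thin limb list Cldn4 rose (log2 fold change 2.43, or 3.17 without healthy mouse 4), also a gene of collecting duct and urothelium, and the water channel gene Aqp1 fell 2.01-fold (8 genes, 2 higher and 1 lower), a call lost by total counts (adjusted p = 0.0554).

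Most of the glomerular genes that were called rose. Among 18 podocyte genes 8 rose and 4 fell (median 0.31), a share of lower genes near the 21.9% over all genes. By total counts 9 rose and 1 fell. Nphs1, the nephrin gene of the slit diaphragm, was at 27.8, 28.4, 21.9 and 30.9 CPM in healthy and 8.595, 11.2, 7.21 and 22.1 CPM in sick mice, 2.21-fold lower (log2 fold change -1.15, adjusted p = 0.00641). By total counts it was not called (-0.56, adjusted p = 0.111). Sick mouse 4 reached the lowest healthy mouse, and wild-type mice had 15.03 to 21.9 CPM. Those that rose included Kirrel, a nephrin relative, 3.68-fold, Nes, the filament protein nestin, 2.77-fold, Plce1 2.02-fold and Wt1, the podocyte transcription factor, 1.77-fold. In the list of parietal and injured glomerular cells 6 of 7 genes rose and 0 fell (median 2.28). Cd44, the hyaluronan receptor that marks activated parietal cells, was at 6.86, 3.36, 5.95 and 8.74 CPM in healthy and 79.3, 53.5, 35.2 and 46.1 CPM in sick mice, 8.61-fold higher (adjusted p = 1.10e-04). Cldn1, a claudin of the parietal layer, rose 5.95-fold. Leukocytes and injured tubules also use Cd44, and the source was not tested.

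The call of endothelial genes depended on the scaling. Of 16 genes 2, Vwf and Gja5, rose and 2, Kdr and Sema3g, fell (median 0.17). Under scaling by total counts 12 rose and 0 fell (median 0.74), and Kdr (-0.41, adjusted p = 0.117) and Sema3g (-0.26, adjusted p = 0.176) were not called. Kdr, the main VEGF receptor, was at 92.3 to 132 CPM in healthy and 44.7 to 55.7 CPM in sick mice. Vegfa, its ligand made by podocytes and tubules, was at 192, 164, 141 and 176 CPM in healthy and 53.8, 65.7, 58.1 and 90.2 CPM in sick mice, 2.51-fold lower (adjusted p = 1.39e-04). By contrast 13 of 15 genes of mesangium, pericytes and smooth muscle rose and 0 fell (median 1.46). Pdgfrb, the growth factor receptor of pericytes and fibroblasts, rose 2.23-fold, Tagln, of contractile cells, 4.85-fold and Serpine2, a protease inhibitor, 4.64-fold.

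Matrix genes rose broadly. In the list of fibrillar collagens and their processing 19 of 21 genes rose and 1 fell (median 2.46). Col1a1, the main chain of scar collagen, was at 49.8, 144, 66.6 and 26.2 CPM in healthy and 1208, 513, 545 and 917 CPM in sick mice, 11.1-fold higher (log2 fold change 3.47, or 4.06 without healthy mouse 2, adjusted p = 1.90e-04). Lox, whose product cross-links collagen, was at 5.78, 9.40, 4.41 and 17.1 CPM in healthy and 223, 197, 116 and 112 CPM in sick mice, 17.6-fold higher (adjusted p = 9.32e-06). No sick mouse was below 100 CPM for Lox, and for both genes sick mouse 1 was the highest. Col5a2 rose 9.12-fold, Tnc, the tenascin of healing tissue, 10.6-fold, and Sparc and Bgn, a collagen binder and a small proteoglycan, 4.26-fold and 3.75-fold. The member that fell was Plod2, a lysyl hydroxylase, at 81.8 to 117 CPM in healthy and 50.9 to 91.3 CPM in sick mice, which overlapped. Its call was lost without healthy mouse 2 (adjusted p = 0.0519), and its direction reversed under scaling by total counts (log2 fold change -0.54 against 0.05).

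Basement membrane genes split, 13 of 21 rising and 4 falling (median 0.96). Col4a1, the ubiquitous collagen IV chain, rose 2.86-fold to 1225 to 2084 CPM, the laminin genes Lamb3 and Lamb2 5.03- and 2.48-fold, and Agrn, agrin, 2.63-fold. Col4a4, a chain of the mature collagen network of the glomerulus, was at 322, 385, 309 and 424 CPM in healthy and 106, 111, 71.5 and 92.8 CPM in sick mice, 3.77-fold lower (adjusted p = 7.98e-06). Tinag, a tubular basement membrane antigen, fell 3.04-fold. Among 16 genes of matrix turnover 10 rose and 2 fell. Timp1, an inhibitor of matrix proteases, was at 1.91, 0.682, 1.43 and 2.04 CPM in healthy and 61.0, 13.5, 23.2 and 78.5 CPM in sick mice, 29.1-fold higher (adjusted p = 2.55e-05), with sick mice 1 and 4 well above 2 and 3. The proteases Mmp2 and Mmp14 rose 9.01-fold and 7.47-fold. Timp3, the inhibitor that is abundant in healthy kidney, fell 3.999-fold (2241 to 2689 CPM in healthy and 372 to 728 CPM in sick mice). In TGF-beta and BMP signalling 12 of 19 genes rose and 1 fell (median 1.42). They included the BMP antagonist Grem1 (1.42 to 2.29 CPM in healthy and 20.0 to 61.9 CPM in sick mice), and Ltbp2, a matrix protein of the latent TGF-beta family, 31.7-fold, or a log2 fold change of 4.22 in place of 4.99 without sick mouse 1. Bmp7, which protects tubule cells, fell 2.43-fold.

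Tubular injury genes were high in every sick mouse. Of 23 such genes 20 rose and 0 fell, with a median of 2.23. Lcn2, the secreted injury marker lipocalin 2, was at 3.43, 3.94, 4.29 and 7.67 CPM in healthy and 269.7, 349.9, 391 and 228 CPM in sick mice, or 64.0-fold more (adjusted p = 9.46e-07). Spp1, osteopontin, reached 10691, 12357, 14068 and 7941 CPM in sick mice 1 to 4 from 557 to 701 CPM in healthy mice, 18.3-fold higher (adjusted p = 1.53e-06). The lowest sick mouse, number 4 for both genes, was still more than 10-fold above the highest healthy mouse. Anxa3, an annexin, rose 7.17-fold and Vim, vimentin, 4.86-fold. Havcr1, the KIM-1 gene of injured proximal tubule, was less even, with 13.4, 21.4, 50.8 and 24.6 CPM in healthy and 35.2, 165, 142 and 283 CPM in sick mice. Sick mouse 1 fell within the healthy range (adjusted p = 0.00304). Across the list the sick mice were alike, at 2.32 to 2.42 log2 units above the healthy mean.

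Genes of signalling and growth arrest rose as well. Edn1, which encodes the vasoconstrictor endothelin 1, had the smallest p-value of all genes. It was at 2.48, 2.10, 3.20 and 3.24 CPM in healthy and 41.9, 45.5, 35.8 and 35.4 CPM in sick mice, 14.4-fold higher (log2 fold change 3.84 ± 0.19, adjusted p = 5.32e-07). Its receptor gene Ednra rose 2.90-fold. Immediate early genes rose in 14 of 17 cases (median 1.64), among them the transcription factors Klf4, 5.45-fold, Klf6, 4.86-fold, and the growth gene Myc (4.46 to 6.19 CPM in healthy and 16.7 to 37.2 CPM in sick mice). Of 17 genes of p53 targets and senescence 11 rose and 2 fell (median 1.48). Cdkn2b, a cell cycle inhibitor, rose 7.501-fold, Eda2r, a death receptor gene, 4.71-fold and Pmaip1, a BH3-only gene, 3.08-fold. Sesn2 fell, with healthy mouse 4 at 361 CPM against 93.9, 84.3 and 66.5 CPM in the others, and without that mouse its log2 fold change was -0.53 in place of -1.41. Its call was lost without sick mouse 1 or 4 (adjusted p = 0.0515 each) and by total counts. Ccng1 was called lower with overlapping groups (-0.37, adjusted p = 0.0379), lost its call without any of healthy mice 1, 3 and 4 and sick mice 1, 3 and 4 (adjusted p = 0.0522 to 0.104), and reversed under scaling by total counts (0.23). Of 23 cell division genes 1, Mcm3, was called, higher (median 0.34), and under scaling by total counts 12 rose (median 0.92). Mki67, the Ki-67 proliferation marker, was at 6.93, 27.6, 8.18 and 12.6 CPM in healthy and 25.9, 10.2, 10.9 and 23.2 CPM in sick mice, with healthy mouse 2 the highest of the 8 (adjusted p = 0.542).

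**Figure D4:**
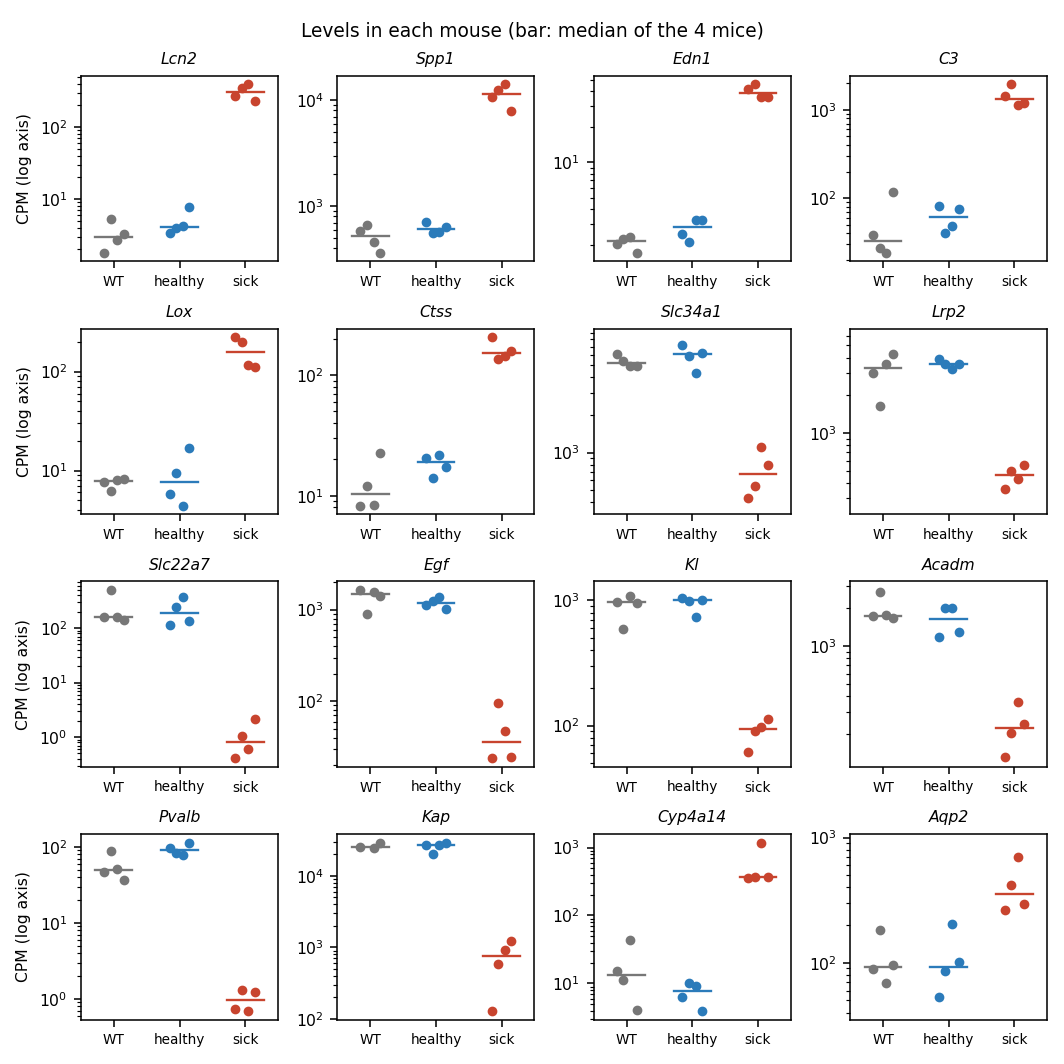
CPM (log axes) of 16 genes in each wild-type, healthy and sick mouse, with the median of each group as a bar. The sick mice are separate from the 4 healthy mice in all 16, and Kap, listed at 0 in wild-type mouse 2, has no point for that mouse.

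Nearly all macrophage genes rose. In the macrophage and monocyte list 21 of 22 genes rose and 0 fell (median 2.60). Ctss, a lysosomal protease of macrophages, was at 20.7, 14.1, 21.8 and 17.3 CPM in healthy and 207, 137, 145 and 158 CPM in sick mice, 8.76-fold higher (adjusted p = 9.60e-06). C1qa, a complement gene made by tissue macrophages, was at 19.6, 15.4, 18.4 and 19.5 and 164, 93.9, 105 and 108 CPM, 6.45-fold higher (adjusted p = 2.74e-05). Sick mouse 1 was the highest for both. Gpnmb, of lipid-laden macrophages, rose 13.98-fold and Cd68 5.14-fold, as did Apoe, a lipoprotein gene that macrophages share with other cells (119.9 to 146 CPM in healthy and 1067 to 1937 CPM in sick mice). Arg1, the arginase of alternatively activated macrophages, rested on 1 mouse, with 12.4, 0.531, 1.23 and 1.23 CPM in sick mice 1 to 4 and 5 counts in all over the 4 healthy libraries. Its log2 fold change of 5.62 was 3.63 without sick mouse 1.

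Fewer genes of lymphocytes and neutrophils were called. Of 13 T and NK cell genes 6 rose and 0 fell (median 1.04), with 10 higher by total counts. Il7r, a cytokine receptor of T cells, was at 1.14, 0.997, 1.202 and 0.852 CPM in healthy and 6.001, 2.95, 5.22 and 13.6 CPM in sick mice, 6.57-fold higher (adjusted p = 3.40e-04), and Cd8a rose 2.51-fold. Sick mouse 4 led for Il7r and sick mouse 3 for Cd8a. In the neutrophil list 2 of 7 genes, Il1b and Csf3r, were called, both higher. Csf3r overlapped between the groups (adjusted p = 0.0460) and lost its call in 6 of the 8 fits that left out 1 mouse of the compared groups (adjusted p = 0.0606 to 0.131). In the list of B and plasma cells 2 of 6 rose and 2 fell, and its median of -0.56 was 0.02 under scaling by total counts. Sdc1, which rose 4.27-fold, is made by epithelia too. Cd22, a B cell receptor gene, was called higher and Cd79a, of the B cell antigen receptor, lower, and both lost their calls in some fits that left out 1 mouse (adjusted p up to 0.0809 and 0.0617). Without healthy mouse 2 Cd22 was at 2.31 in place of 1.67. Igj, the joining chain of secreted antibodies, ran from 7.77 to 356 CPM within the healthy group and was called lower at an adjusted p of 0.0473, a call lost when any of healthy mice 1, 3 and 4 or sick mice 1 to 3 was left out (adjusted p = 0.0666 to 0.111). Without sick mouse 4 its log2 fold change was -4.96 in place of -3.23.

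Complement, chemokine and cytokine genes rose in most members. Of 20 complement and coagulation genes 15 rose and 1 fell (median 1.77). C3, the central complement component, was at 81.3, 40.4, 48.6 and 74.4 CPM in healthy and 1449, 1943, 1128 and 1197 CPM in sick mice, 23.4-fold higher (adjusted p = 2.56e-05). Serping1, the C1 inhibitor gene, rose 5.30-fold, C1s, a protease of the classical pathway, 3.25-fold and Cfp, properdin, 5.19-fold. Cfb, of the alternative pathway, fell (379 to 525 CPM in healthy and 166 to 268 CPM in sick mice). Of 21 chemokine genes 14 rose and 1 fell (median 2.32). Cxcl13, which attracts B cells, was at 0.191 to 0.801 CPM in healthy and 6.53, 6.24, 2.30 and 10.7 CPM in sick mice, 14.9-fold higher, and the myeloid chemokines Ccl9 and Ccl6 rose 9.57-fold and 7.75-fold. Ccl28, a mucosal chemokine, was the member that fell, from 371, 98.5, 338 and 675 CPM in healthy to 5.03, 9.23, 15.6 and 21.4 CPM in sick mice, 29.1-fold lower (adjusted p = 1.53e-04). Its healthy and its wild-type mice, at 93.4, 336, 82.1 and 325 CPM, both spread more than 3-fold, and every sick mouse lay below them.

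Among 21 cytokine and receptor genes 18 rose and 0 fell (median 1.65). Socs3, the feedback inhibitor that IL-6 type cytokines induce, was at 4.13, 2.94, 4.06 and 5.45 CPM in healthy and 64.8, 30.5, 26.1 and 44.5 CPM in sick mice, 10.01-fold higher (adjusted p = 1.31e-05). Sick mouse 1 was the highest for Socs3. The alarmin Il33 rose 4.54-fold, the NF-kB subunit Relb 3.15-fold and the TNF receptor gene Tnfrsf1a 2.03-fold. Of 16 antigen presentation genes 13 rose and 0 fell (median 1.29), with Cd74 and H2-Ab1, of class II, 4.65-fold and 4.86-fold higher and the peptide loader Tapbp 2.28-fold.

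Interferon-stimulated genes rose in 16 of 24 cases, with 0 lower and a median of 1.17, and 1 mouse stood above the rest. The list was at 0.47, 0.62, 1.64 and 0.71 log2 units from the healthy mean in sick mice 1 to 4, highest in mouse 3. Oas2, an antiviral RNA sensor, was at 1.46, 2.05, 1.32 and 3.58 CPM in healthy and 4.95, 9.43, 11.4 and 9.46 CPM in sick mice, 4.16-fold higher (adjusted p = 6.86e-04). Gbp3, an interferon-induced GTPase, was at 8.07, 9.34, 9.21 and 6.70 and 15.6, 21.3, 35.1 and 20.5 CPM, 2.77-fold higher (adjusted p = 2.77e-04). For both the sick mice lay above all healthy mice, and mouse 3 was the highest. Ifit2 rose 2.82-fold and Irf1, a transcription factor, 2.10-fold. Without sick mouse 3 the median of the list was 0.65, with 10 genes higher, and without healthy mouse 1 10 were higher.

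The promoter of Gbp3 is shown because genes of this list are known targets of factors that bind pairs of GAAA. The window runs from 250 bases before to 50 after the annotated start (RefSeq, GRCm38.p6, chr3:142559794-142560093, forward strand), with matches on either strand to GAAA, any 2 bases and GAAA in capitals.
Gbp3: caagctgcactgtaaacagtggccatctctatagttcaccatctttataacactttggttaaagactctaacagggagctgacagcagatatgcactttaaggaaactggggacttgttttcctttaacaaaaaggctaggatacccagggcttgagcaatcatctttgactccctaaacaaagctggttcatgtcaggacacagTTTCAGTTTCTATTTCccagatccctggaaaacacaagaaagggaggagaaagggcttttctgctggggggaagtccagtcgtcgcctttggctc
The 300 bases held 2 overlapping matches that begin 45 and 39 bases before the start. The motif occurred in 3.44% of 32851 promoter windows of the same length and in those of 12 of the 18 genes of the list found in that table. A match is a description of letters and not of binding.

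Genes of mitochondrial oxidation fell together. Of 27 nuclear genes of oxidative phosphorylation 24 fell and 0 rose (median -1.07), or 15 and 0 by total counts (median -0.50). Ndufs1, of complex I, was at 367, 332, 335 and 355 CPM in healthy and 87.6, 101, 155 and 106 CPM in sick mice, 3.09-fold lower (adjusted p = 1.49e-05). Sdha, of complex II, fell 2.68-fold, Uqcrc2, of complex III, 2.49-fold and Atp5a1, of the ATP synthase, 2.4997-fold. Sick mouse 3 kept the highest level of each of the 4 genes within its group, and no sick mouse reached a healthy one. Of 12 mitochondrially encoded genes 9 fell (median -1.65), among them mt-Nd2 (9693 to 12879 CPM in healthy and 1565 to 3350.2 CPM in sick mice), and mt-Cytb, 4.09-fold. The other 3, mt-Atp6, mt-Atp8 and mt-Co3, are listed at 0 in wild-type mouse 2 and were called lower once that library or all wild-type libraries were left out, with 12 of 12 lower in the 8 libraries alone. mt-Co3 was at 20740.3, 18433, 21934 and 23433 CPM in healthy and 4662, 6153, 9463 and 9029 CPM in sick mice (adjusted p = 0.376 in 12 libraries and 0.00247 in 8).

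In the tricarboxylic acid cycle 16 of 17 genes fell (median -1.11; 10 by total counts), with Ogdh 2.75-fold and Idh3b 2.44-fold lower. Fatty acid oxidation had 15 of 22 genes lower and 0 higher (median -0.90), or 7 and 1 by total counts (median -0.33). Acadm, the medium-chain acyl-CoA dehydrogenase, was at 1190.0, 2014, 2008 and 1290.0 CPM in healthy and 131, 202, 358 and 238 CPM in sick mice, 6.99-fold lower (log2 fold change -2.81 ± 0.32, adjusted p = 2.78e-05). Hadh, of a later step of the spiral, fell 3.30-fold, Etfa, which passes its electrons on, 2.73-fold and Crot, of peroxisomes, 3.95-fold. The list stood at -1.54, -1.16, -0.37 and -1.01 log2 units from the healthy mean in sick mice 1 to 4, with mouse 1 lowest and mouse 3 highest, as for oxidative phosphorylation.

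One list held mostly genes that the fatty acid sensor PPAR-alpha is known to induce, together with the gene of the sensor, Ppara. Of these 16 genes 7 rose and 3 fell (median 0.82), a share of lower genes near the 21.9% over all genes. Cyp4a14, a fatty acid hydroxylase, was at 6.29, 10.3, 9.10 and 3.92 CPM in healthy and 352, 374, 1181 and 371 CPM in sick mice, 76.7-fold higher (log2 fold change 6.26 ± 0.75, adjusted p = 3.70e-05). Sick mouse 3 was the highest, and without it the log2 fold change went from 6.26 to 5.62. Plin2, of the lipid droplet surface, rose 2.001-fold. Cd36, a fatty acid carrier of kidney and fat, went the other way, at 1216, 1121, 1113 and 1291 CPM in healthy and 28.1, 92.5, 141 and 276 CPM in sick mice (log2 fold change -3.14, or -3.77 without sick mouse 4), as did Cyp4a12a, a male-high gene of the same enzyme family as Cyp4a14, 19.3-fold lower (log2 fold change -4.27, or -5.19 without sick mouse 4).

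Fabp1, a fatty acid binding protein, had low counts in healthy mice, 0.0635, 0.0525, 0.229 and 0.114 CPM, and 2.03, 0.664, 5.99 and 2.88 CPM in sick mice, 23.3-fold higher (adjusted p = 5.26e-04), with mouse 3 again on top. Without that mouse its log2 fold change was 3.92 in place of 4.54. Its promoter is shown because it holds a direct repeat of the kind that PPAR-alpha binds (RefSeq, GRCm38.p6, chr6:71199629-71199928, forward strand, the match on either strand to AGGNCA, any 1 base and AGGNCA in capitals, N being any base).
Fabp1: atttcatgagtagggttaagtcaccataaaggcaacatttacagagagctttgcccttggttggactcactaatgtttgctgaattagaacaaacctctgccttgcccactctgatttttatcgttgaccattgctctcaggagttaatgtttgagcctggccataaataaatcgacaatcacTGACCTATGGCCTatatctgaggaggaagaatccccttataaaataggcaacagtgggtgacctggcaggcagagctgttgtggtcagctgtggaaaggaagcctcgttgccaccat
The match lies 67 bases before the annotated start. It was found in 0.381% of all 32851 windows and, of the 9 genes of the list in that table, in Fabp1 alone.

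All 10 genes of gluconeogenesis and fructose use that were tested fell, with a median of -1.98. G6pc, the phosphatase that releases glucose, was at 943, 812, 673 and 3118 CPM in healthy mice 1 to 4 and 108, 89.4, 376 and 106 CPM in sick mice, 8.17-fold lower (adjusted p = 9.31e-04). Healthy mouse 4 lay more than 3-fold above its group and sick mouse 3 more than 3-fold above its own. The log2 fold change of -3.03 was -2.26 without the former and -3.78 without the latter. Fbp1, the bisphosphatase, fell 5.09-fold, Pcx, pyruvate carboxylase, 4.77-fold and Sord, of the polyol pathway, 4.72-fold. Of 15 glycolysis genes 2 rose and 4 fell (7 and 3 by total counts, and 7 lower without sick mouse 3 or without wild-type mouse 2), and their median of -0.31 was 0.27 under scaling by total counts. Hk2, an inducible hexokinase, rose (2.03 to 2.498 CPM in healthy and 7.75 to 21.0 CPM in sick mice).

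Amino acid pathways fell in 18 of 21 genes and rose in 1 (median -1.71). Gatm, of creatine synthesis, was at 1418, 1226, 868 and 1096 CPM in healthy and 91.5, 51.4, 74.5 and 121 CPM in sick mice, 13.6-fold lower (adjusted p = 3.32e-06). Ass1, the arginine synthesis enzyme, fell 7.73-fold and Agmat, a hydrolase of the same metabolism, 7.38-fold. Arg2, the mitochondrial arginase, was the member that rose, at 2.22 to 11.2 CPM in healthy and 27.1 to 89.5 CPM in sick mice. In the list of NAD synthesis and the kynurenine pathway 10 of 14 genes fell and 1 rose (median -0.87), or 6 and 3 by total counts. Ido2, which opens the breakdown of tryptophan, was at 17.7, 15.3, 16.9 and 22.0 CPM in healthy and 0.487, 0.697, 0.921 and 1.13 CPM in sick mice, 22.6-fold lower (adjusted p = 7.45e-07). The groups were narrow and lay more than 10-fold apart. Acmsd, of a later branch, fell 10.8-fold and Kmo 5.18-fold, while Nnmt, which methylates nicotinamide, rose to 3.57, 3.52, 4.14 and 14.4 CPM from 0.508 to 0.945 CPM, led by sick mouse 4 (log2 fold change 3.14, or 2.36 without it).

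Of 18 genes of glutathione and oxidant defence 12 fell and 2 rose (median -1.09). Sod2, the mitochondrial superoxide dismutase, fell 3.25-fold, Cat, catalase, 2.82-fold and Gpx3, the plasma glutathione peroxidase that the kidney secretes, from 23476, 16073, 16942 and 23839 CPM in healthy to 4719.9, 6799, 10254 and 8266 CPM in sick mice (adjusted p = 0.00181). Nqo1 and Slc7a11, targets of the oxidant sensor NRF2, rose 1.92-fold and 3.25-fold. In drug metabolism 9 of 20 genes fell and 5 rose (median -1.203), with Cyp4b1, a monooxygenase of kidney and lung, 10.02-fold lower, Cyp7b1, an oxysterol hydroxylase, 29.4-fold lower (log2 fold change -4.88, or -4.18 without healthy mouse 3) and the glutathione transferase gene Gsta4 4.93-fold higher. Cholesterol synthesis had 11 of 22 genes lower and 1 higher (7 and 5 by total counts), and its median of -0.48 was 0.10 under scaling by total counts. Cyp51, a sterol demethylase, was at 252, 386, 399 and 169 CPM in healthy and 30.6, 20.7, 24.2 and 30.8 CPM in sick mice, 11.3-fold lower (adjusted p = 3.32e-06). Healthy mice 2 and 3 had the most Cyp51, and the sick mice differed little among themselves. Idi1, of isoprenoid synthesis, fell 7.07-fold.

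Hormone and mineral genes changed on both sides. Kl, the klotho gene and coreceptor of the phosphate hormone FGF23, was at 1047, 993, 739 and 1005 CPM in healthy and 61.5, 90.2, 97.5 and 113 CPM in sick mice, 10.4-fold lower (log2 fold change -3.39 ± 0.24, adjusted p = 2.45e-06). Cyp27b1, which activates vitamin D, was at 5.34, 7.24, 4.81 and 8.80 CPM in healthy and 52.4, 31.4, 86.9 and 17.4 CPM in sick mice, 7.15-fold higher (adjusted p = 0.00230). Wild-type mice had 2.83, 17.7, 16.9 and 3.65 CPM, so sick mouse 4 lay within their range. Pth1r, the parathyroid hormone receptor, fell 3.92-fold and Stc2, a stanniocalcin, rose 4.14-fold. In the whole list 3 of 14 genes rose and 7 fell, and its median of -0.55 was 0.03 under scaling by total counts. Of 14 renin-angiotensin and vasoactive genes 5 rose and 5 fell, 3 of them still called lower without any of healthy mice 1, 2 and 4 and sick mice 1 and 4 and 2 by total counts. Ren1, renin, was at 24.7, 114, 30.2 and 49.2 CPM in healthy and 10.8, 21.1, 53.9 and 18.8 CPM in sick mice, which overlapped (adjusted p = 0.147). Without sick mouse 3 it was called lower (log2 fold change -1.70 in place of -1.07, adjusted p = 0.0290), and without healthy mouse 2 the value was -0.42 (adjusted p = 0.554). Mas1, the receptor of a vasodilator fragment of angiotensin, fell 8.39-fold (log2 fold change -3.07, or -4.27 without sick mouse 4), and Ptgs2, the inducible cyclooxygenase, rose 3.85-fold.

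Among 20 transcription factors of tubule identity 8 fell and 3 rose (median -0.40). Under scaling by total counts 6 rose and 4 fell (median 0.16). Hnf4a, the master factor of the proximal tubule, was at 1019, 1033, 1062 and 1493 CPM in healthy and 283, 454, 441 and 444 CPM in sick mice, 2.84-fold lower (adjusted p = 2.20e-04). The groups did not overlap. Lhx1, of nephron formation, fell 2.69-fold, while Pax8, of all nephron epithelium, rose (62.1 to 79.2 CPM in healthy and 109 to 166 CPM in sick mice) and Foxq1 rose 2.32-fold. Smarca2, a chromatin remodelling ATPase outside these lists, fell from 391, 408, 370.1 and 417 to 73.7, 72.5, 68.3 and 81.6 CPM, with one of the 10 smallest p-values (adjusted p = 7.45e-07).

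Sialic acid genes were split. Of 22 genes of its synthesis and transfer 8 rose and 10 fell, Gne among the latter, against 10 and 3 by total counts, and the median of -0.46 was 0.15 under scaling by total counts. Cmah, which makes the second sialic acid of mice by hydroxylation, was at 98.2, 105, 114 and 103 CPM in healthy and 25.1, 28.4, 21.3 and 33.5 CPM in sick mice, 3.87-fold lower (adjusted p = 6.25e-06). St8sia1, the transferase that makes ganglioside GD3, fell 4.46-fold (142 to 211 CPM in healthy and 36.5 to 45.5 CPM in sick mice). Neu1, the lysosomal sialidase, fell 2.70-fold and Slc17a5, the lysosomal exporter of free sialic acid, 1.79-fold, the latter not called by total counts (-0.24, adjusted p = 0.187). On the other side St6gal1, which caps N-glycans, was at 20.1, 16.4, 22.3 and 20.2 CPM in healthy and 87.8, 58.9, 38.1 and 52.5 CPM in sick mice, 3.00-fold higher (adjusted p = 9.94e-05). St6galnac6, a ganglioside transferase, rose 3.37-fold. In all 6 of these genes the sick and healthy mice did not overlap, Slc17a5 having the narrowest gap.

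Stress lists other than those above had members on both sides. In ER stress and the amino acid response 4 of 17 genes rose and 5 fell (median -0.23). Both counts were near the shares over all genes, 24.5% higher and 21.9% lower. By total counts 7 rose and 1 fell (median 0.36). The chaperone gene Hspa5 was at 653 to 1186 CPM in healthy and 250.2 to 672 CPM in sick mice, a call lost by total counts or without sick mouse 2 (adjusted p = 0.148 and 0.0505), and Atf5, a stress-induced factor, was 3.11-fold higher. Of 11 heat shock chaperones 5 fell and 1, Hspb1, rose, and of the 5 that fell Hspd1 and Hspe1 work inside mitochondria and were 3.76-fold and 2.52-fold lower. Of 14 hypoxia genes 2 rose and 4 fell (median -0.15), against 7 and 3 by total counts (median 0.44). The counts of 2 and 4 also lay near the shares over all genes. Ribosomal protein genes rose in 19 of 24 cases and fell in 0 (median 0.71), among them Rps4x (165 to 178 CPM in healthy and 291 to 396 CPM in sick mice). Wild-type mouse 2, at 333 CPM, lay within the sick range for that gene. For the whole ribosomal list it lay above every sick mouse, at 0.95 log2 units from the healthy mean against 0.48 to 0.91. The median of the list was 0.38 for sick minus wild-type mice.

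Among the largest rises by the naming rule were Ntsr1, Arhgap36, Cyp4a14, Lcn2, Arg1, Slc36a2, Hp, Adipoq and Mrap. Ntsr1, a neurotensin receptor, had no count in the healthy and wild-type mice and 1.66, 2.66, 1.46 and 0.463 CPM in sick mice. With the healthy group set to 3 counts in all, the sick mice were at least 36.3-fold higher. Arhgap36, a regulator of hedgehog signalling, had 1 count over the 4 healthy libraries and 2.15, 2.09, 4.76 and 2.16 CPM in sick mice. Every sick mouse held both transcripts, at low levels. Hp, haptoglobin, was at 1.97, 5.35, 2.29 and 2.90 CPM in healthy and 17.96, 33.9, 53.6 and 437 CPM in sick mice, and its log2 fold change of 5.43 was 3.48 without sick mouse 4. Slc36a2 and Mrap, both also fat genes, depended on the same mouse in like manner (5.496 to 4.02 and 5.38 to 4.63, the latter 6.42 without healthy mouse 2).

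The largest falls were in Ckmt2, Myh1, Actc1, Cntnap5a, Hrg, Slc22a7, Myh2, Lipo2, Myot and Pvalb. Ckmt2, Myh1, Actc1, Myh2 and Myot are muscle genes, with 21.1 to 35.0 CPM of Myh1 in healthy mice, 0 to 0.206 CPM in sick mice and 0.0652 to 0.884 CPM in wild-type mice. Their sick and wild-type levels were alike near 0, so these falls go with the muscle transcripts of the healthy libraries. Of the others, Pvalb is a gene of fast muscle fibres as well as of the distal tubule, as given above. The rest are not in the muscle list. Cntnap5a, a neurexin relative, had 2 counts in sick mice and 9.59, 5.04, 6.92 and 9.31 CPM in healthy mice, with 3.71 to 11.4 CPM in wild-type mice. Hrg, histidine-rich glycoprotein, had 1 count in sick mice and 7.12, 0.892, 4.41 and 3.46 CPM in healthy mice, and Lipo2, a lipase, none in sick mice and 1.08, 0.787, 1.95 and 1.25 CPM in healthy mice, at least 36.8-fold lower with the sick group set to 3 counts in all. Tmco3 and Pdk3 were among the 10 smallest p-values and fell 5.29-fold and 4.41-fold. Pdk3, a kinase that restrains pyruvate oxidation, was at 74.1, 83.2, 77.0 and 82.3 CPM in healthy and 15.6, 17.4, 20.4 and 18.4 CPM in sick mice (adjusted p = 7.45e-07).

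Beyond the difference between groups, the sick mice differed among themselves. Sick mouse 1 had the lowest level, in log2 units from the healthy mean, of the apical carriers (-2.10, -1.85, -1.39 and -1.72 in mice 1 to 4), of the basolateral carriers (-3.47, -3.01, -2.42 and -2.32) and of oxidative phosphorylation (-1.56, -1.30, -0.54 and -1.18). It had the highest of collagens (2.82, 2.03, 1.83 and 2.36) and macrophages (3.04, 1.90, 2.02 and 2.53). Sick mouse 3 was nearest to the healthy mice for apical carriers, oxidation and gluconeogenesis (-2.45, -2.41, -1.01 and -2.19) and highest for PPAR-alpha targets (0.03, 0.35, 1.34 and 0.77) and interferon-stimulated genes. Sick mouse 4 was highest for T and NK cells (0.59, 0.25, 1.07 and 1.66), chemokines (1.83, 0.85, 1.27 and 2.39) and antigen presentation (1.24, 1.27, 1.58 and 1.80), and nearest to the healthy mice for the androgen-responsive list (-4.52, -3.82, -3.39 and -2.48). With 4 mice these orders are a description and were not tested. Total counts were 17793647, 22633684, 10605546 and 14919081 in sick mice 1 to 4. The shallowest library, mouse 3, was thus also nearest to the healthy mice for apical carriers, oxidation and gluconeogenesis. The part of depth in these orders was not tested. Set beside the wild-type mice, the medians of the sick mice were alike in sign, at -2.51 for basolateral carriers, -3.52 for androgen-responsive genes, 2.73 for injury genes, 2.75 for collagens and 3.09 for macrophages. These values share the sick libraries with those above and are no separate evidence.

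**Figure D5:**
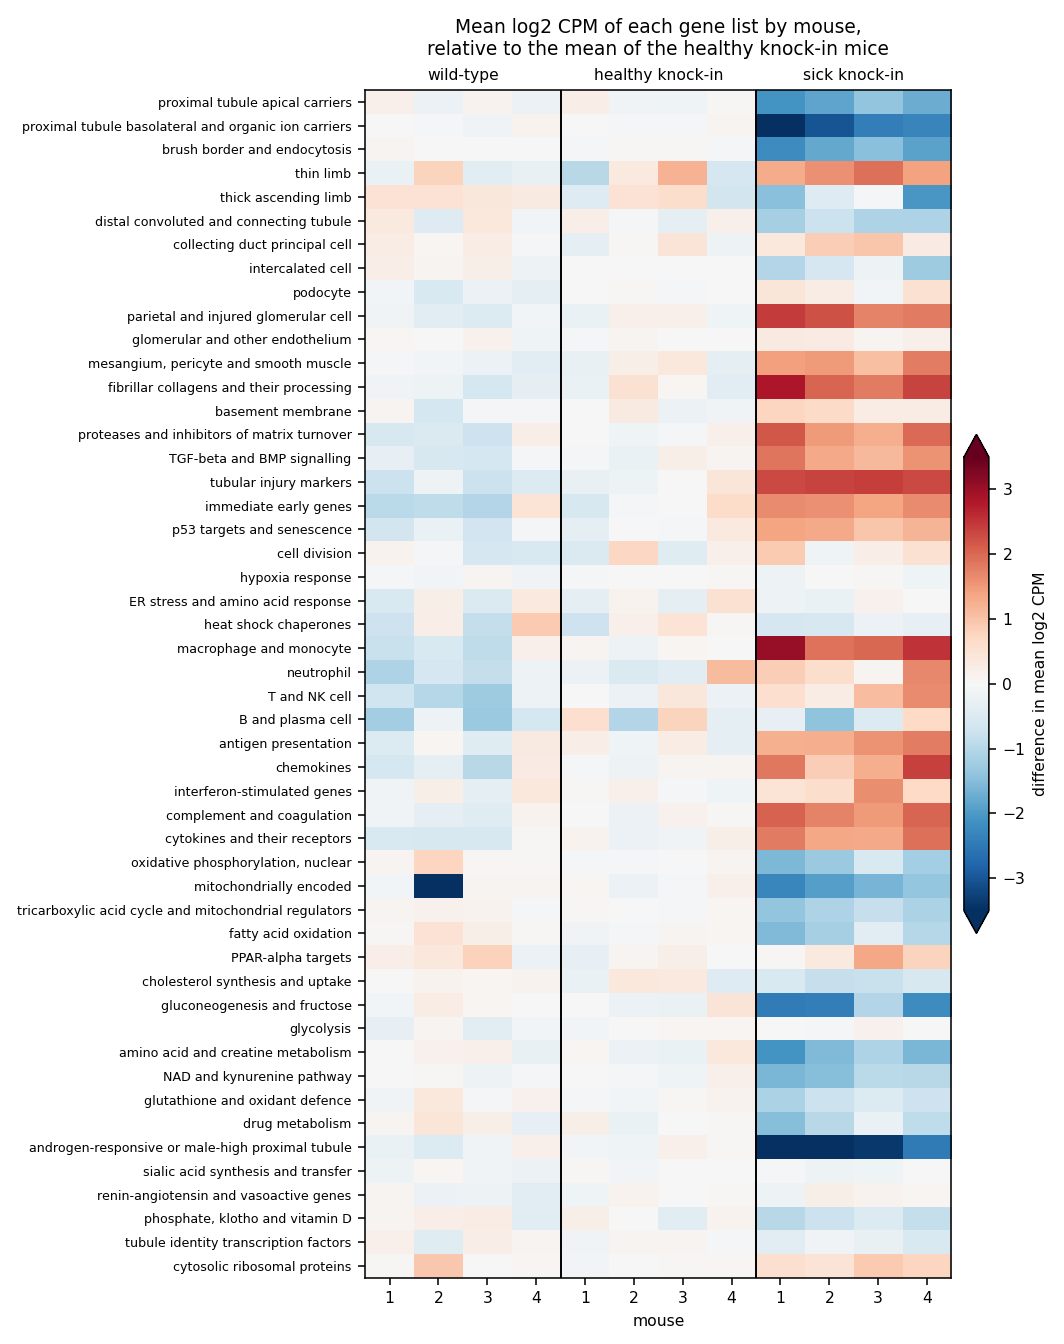
Mean log2 CPM of each gene list (rows) in each mouse (columns), minus the mean of the 4 healthy knock-in mice, from blue (lower) to red (higher). The 4 sick mice share their signs in most lists but differ in depth of colour, and the dark cell of wild-type mouse 2 for mitochondrially encoded genes comes from the 3 genes listed at 0 in that library.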

How the data were processed

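Kidney RNA-seq of 12 male mice was deposited as raw counts per Ensembl gene, 39171 genes in all, with 12 further columns of the authors' normalized counts that were not used. Per the submitters' processing notes, the tools were DESeq2 1.12.4, Cufflinks, TopHat2 2.0.11 and Trim Galore 0.3.7, with GRCm38. Counting program, annotation release and strand setting were not given in the sources used here, so reads of overlapping or antisense genes and of near-identical copies cannot be told apart. The same deposited table holds the authors' log2 fold changes and p-values of sick against healthy mice. Their calls were counted and not compared gene by gene with those given here.

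Counts of the 12 libraries entered 1 fit per gene in edgeR 4.0.16 (R 4.3.3), with a filter on low counts by group, TMM factors, a quasi-likelihood test and Benjamini-Hochberg adjustment over 15589 genes at 0.05. The healthy, sick and wild-type groups shared the estimate of spread (common biological coefficient of variation 0.27). The SE was the log2 fold change divided by the square root of F. Log2 levels used a prior count of 2, and the level of a list is the mean over its members. A group without counts was set to a floor of 3 counts over the group, which covers counting error only. Alternatives included limma 3.58.1, DESeq2 1.42.0, other scalings and filters, a replicate block and fits without 1 mouse. On data simulated from these libraries with 15302 genes tested, the sick against healthy test recovered 50 of 100 genes changed by 1 and 95 of 99 changed by 2 on the log2 scale, with 7 false calls (4.61%). Those changed genes were a small share of the genes tested, while 46.4% of genes were called in the mice. The rate of recovery or of false calls with so large a share of changed genes was not tested.

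The members and the 57 gene lists were chosen with earlier results of these data known. Genes are named by a rule. It takes Gne, the 10 largest rises and falls among called, non-overlapping genes of mean 1 CPM or more in their higher group, the 10 smallest p-values and the 5 most abundant called genes each way. From each list it takes up to 4 called members in its main direction and 2 in the other. Havcr1, Umod, Ren1, Ckm, Acta1, Upk1a, Hbb-bs, Col1a1, Slc12a1, Nphs1, Wt1, Mki67, mt-Atp6, mt-Atp8 and mt-Co3 were added after their values were seen. Promoters are from RefSeq (GRCm38.p6). Some members are not reported here.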

Additional observations from a re-analysis of the deposited data

Results flagged for a closer look

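In 330 groups of 4 mice examined, over the genes given mouse by mouse and the gene lists, 42 held a mouse far from the other 3 by Dixon's test. Chance flags about 1 in 20 groups, and genes of 1 library are not independent of each other. All values are CPM unless said otherwise.

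Sick mouse 4 was far above the other sick mice for Hp (437), Igj (67.5), Upk1a (47.9), Krt5 (44.9) and Nnmt (14.4). It was also above them for Myh1 (0.206) and Hrg (0.0514), which rest on a few counts. Sick mouse 3 was far above its group for Cyp4a14 (1181), G6pc (376), Slc16a4 (32.6) and Arhgap36 (4.76). Sick mouse 1 was high for Arg1 (12.4) and low for Hnf4a (283), and sick mouse 2 alone held counts of Cntnap5a (0.0664).

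Healthy mouse 4 was far above the other healthy mice for G6pc (3118), Hnf4a (1493), Sesn2 (361), Acta1 (102), Gne (76.9), Ckm (38.8) and Hk2 (2.498), and below them for Aoc1 (5.45). Healthy mouse 3 was high for Upk1a (18.5) and Krt5 (4.92), and healthy mouse 1 high for Kdr (132) and the only one with a count of Arhgap36 (0.0635).

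Wild-type mouse 2 was far from its group for Kap and mt-Co3, both listed at 0, and high for Acadm (2718), Slc22a18 (763), Slc22a7 (502), Rps4x (333), Aoc1 (15.1), Upk1a (2.12), Krt5 (0.825) and the level of the list of nuclear oxidative phosphorylation genes (0.75 log2 units above the healthy mean). Wild-type mouse 4 was high for C3 (117), Myc (16.8), Cntnap5a (11.4), Hrg (6.66) and Cd44 (6.46) and low for Slc34a3 (36.6).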

How the results depend on the processing

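The counts of 3814 genes higher and 3418 lower stayed within 1.5 times of these values under DESeq2 (3948 and 3792), limma-voom, other size factors, upper-quartile scaling, robust dispersion, other filters, the 8 libraries alone and an adjusted p below 0.01. With libraries scaled by their totals alone they were 8581 and 1425, which raised the share of higher calls from 52.7% to 85.8% (61.7% with upper-quartile scaling). With a log2 fold change of at least 1 also required they were 2410 and 1695. In fits that left out 1 mouse they ranged from 3277 to 4395 and from 2853 to 4118. The highest were without wild-type mouse 2, an alternative chosen after seeing the data, where 99.8% of the 7232 calls were kept. Without 1 of the compared mice 83.4% to 93% of these calls were kept. With the replicate block 91.8% were kept, and with totals alone 72.4%. Gne was lower throughout, at -0.92 to -0.43 when 1 mouse was left out, and was not called with totals alone (-0.17, adjusted p = 0.469). Of 288 other named genes 250 kept their call and direction in every setting that tested them. With totals alone 2 reversed, Ccng1 (0.23) and Plod2 (0.0509). Most of the 288 were named for large changes, small p-values or calls within a list, so their share does not stand for all genes. The labels number mice 1 to 4 in each group. Over all genes, deviations of same-numbered healthy and sick mice correlated at -0.02 to 0.06, and 1 of 4 numbers correlated best with its own. Such a correlation does not show a pattern that several numbers share. Summed blood genes were at 85.5, 326, 278 and 82.3 CPM in healthy mice 1 to 4. They were at 17.9, 212, 214 and 105 CPM in sick and 86.8, 391, 210 and 95.3 CPM in wild-type mice. Mice 2 and 3 were thus the higher in every group. They were also above mice 1 and 4 for some kidney lists, in the healthy and sick groups though not in wild-type mice. Among these were the lists of thin limb, thick ascending limb and collecting duct principal cell. A shared batch was not tested. With the replicate block 3607 genes were higher and 3202 lower, and Gne was at -0.70 (adjusted p = 0.0233). The authors' deposited table, with an adjusted p for 18300 genes, calls 1660 genes higher and 1430 lower, none with a log2 fold change below 0.72 in size. Depth limits genes with few counts, such as Fabp1, Ntsr1, Hrg and Arg1, whose values rest on a few counts in 1 group.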
